A study of Mus musculus with 16 samples.

Results

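The structural RNAs followed here, all made by RNA polymerase III (Pol III), were chosen by gene name: *Rpph1*, *Rmrp*, *Rn7sk*, *Rny1* and *Rny3*. They are 5 of the 25054 genes in the table of raw counts. RNA had been sequenced from 16 mouse osteosarcomas, 8 labeled KO and 8 labeled WT, to compare tumors with and without conditional loss of *Arid1a*, a subunit of the SWI/SNF chromatin remodeler. WT tumors had the genotype OsxCreERT2+/-;p53fl/fl;Rb1fl/fl, and KO tumors carried Arid1afl/fl besides. All mice, male and female and over 6 months old, had been given tamoxifen by intraperitoneal injection at 1 month of age, at 400 μg per gram of body weight. Cre was thus active in cells that expressed Osterix, and other cells of a tumor kept their alleles intact. By the animal codes, the KO tumors came from 8 mice and the WT tumors from 4, of which N42 gave 4 tumors, N43 gave 2, and N215 and N25 gave 1 apiece. Tumors of a single mouse are not independent, so p-values over 16 tumors measure in part the spread within mice, and values per mouse are given beside them.

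Pol III transcribes short untranslated RNAs such as transfer RNAs, 5S ribosomal RNA and the RNAs studied here. Unlike transfer RNA and 5S genes, which have promoters inside the gene, the genes studied here are driven in vertebrates from promoters upstream of the start. *Rpph1* is the catalytic RNA of RNase P, which trims the 5′ end of transfer RNA precursors. *Rmrp* is the RNA of the related RNase MRP, which acts in ribosomal RNA maturation. *Rn7sk* is the 7SK RNA, the scaffold that holds the elongation kinase P-TEFb inactive. *Rny1* and *Rny3* are Y RNAs, which bind the *Ro60* and La proteins.

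The sequences of the 5 RNAs are shown because their length and their likeness to other genes set how single-end reads of 50 bases could be assigned. They come from GENCODE M21 on GRCm38, and of *Rpph1* and *Rn7sk* positions 1 to 300 are shown. In the first 3, capitals mark bases that lie in no 50-base window shared with another annotated gene. In the 2 Y RNAs, capitals mark stretches of 8 or more bases that the pair shares.
Rpph1: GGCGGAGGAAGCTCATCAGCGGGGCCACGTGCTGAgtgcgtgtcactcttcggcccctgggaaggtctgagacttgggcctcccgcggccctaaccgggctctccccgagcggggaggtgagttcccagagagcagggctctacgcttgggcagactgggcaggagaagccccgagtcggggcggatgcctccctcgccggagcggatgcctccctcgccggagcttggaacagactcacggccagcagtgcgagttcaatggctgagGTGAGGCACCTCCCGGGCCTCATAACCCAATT
Rmrp: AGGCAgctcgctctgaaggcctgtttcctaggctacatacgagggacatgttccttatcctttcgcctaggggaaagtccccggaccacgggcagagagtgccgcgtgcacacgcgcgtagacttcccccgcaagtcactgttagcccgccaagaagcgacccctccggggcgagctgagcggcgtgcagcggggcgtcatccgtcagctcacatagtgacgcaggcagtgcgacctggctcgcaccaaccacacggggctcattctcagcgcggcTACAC
Rn7sk: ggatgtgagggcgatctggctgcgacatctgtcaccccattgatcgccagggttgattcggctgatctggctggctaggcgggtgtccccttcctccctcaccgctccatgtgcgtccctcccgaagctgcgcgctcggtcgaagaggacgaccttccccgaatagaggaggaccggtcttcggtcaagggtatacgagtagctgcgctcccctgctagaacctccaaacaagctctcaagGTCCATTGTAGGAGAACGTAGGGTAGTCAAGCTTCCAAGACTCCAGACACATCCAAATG
Rny1: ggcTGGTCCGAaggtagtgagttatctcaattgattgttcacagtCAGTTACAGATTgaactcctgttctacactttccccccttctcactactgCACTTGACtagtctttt
Rny3: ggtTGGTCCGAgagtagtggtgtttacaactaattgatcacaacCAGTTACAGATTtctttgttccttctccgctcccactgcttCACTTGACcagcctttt

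*Rpph1* (ENSMUSG00000092837, 319 bases) lies at chr14:50807449-50807767 on the minus strand, annotated as a ribozyme. Of its 270 windows 184 (68.1%) also lie in an exon of *Ccnb1ip1* on the same strand, which overlaps it over 284 bases, but *Ccnb1ip1* held only 196 counts over all tumors. *Rmrp* (ENSMUSG00000115420, 281 bases) lies at chr4:43492783-43493063 on the minus strand. Of its 232 windows 222 (95.7%) were shared with another record of the same RNA that was not analysed here, and 75 with *Ccdc107* on the opposite strand. Whether reads were counted by strand is not given in the sources used here, so reads of *Rmrp* and *Ccdc107* cannot be told apart in the overlap. *Rn7sk* (ENSMUSG00000065037, 331 bases) lies at chr9:78175303-78175633 on the minus strand and holds GATC at positions 13, 42 and 64 from its 5′ end. Of its 282 windows 192 (68.1%) were shared with 7 copies in the genome, the most abundant being *Gm24447* with 16695 counts in all. *Rny1* (ENSMUSG00000065701, 112 bases, chr6:47788069-47788180, minus strand) and *Rny3* (ENSMUSG00000064945, 102 bases, chr6:47781624-47781725, plus strand) are neighbors. They were identical at 81 of 102 aligned bases (79.4%), and both end in 4 T. Of the 63 windows of *Rny1*, 12 (19.0%) were shared with *Gm26168*, and of the 53 windows of *Rny3*, 0 were shared.

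The libraries differed in depth and in ribosomal RNA left after its depletion. Total counts ran from 1109487 to 15059640 in KO and from 7806160 to 16962329 in WT, a log2 difference of −1.48 (KO minus WT, two-sided exact permutation test, p = 0.00280). Ribosomal RNA features took between 0.519% and 23.8% of the counts in KO (median 6.69%) and between 0.105% and 1.95% in WT (median 0.165%), with p = 0.00249 in the same exact test. Per mouse, the exact permutation p was 0.0667 for the mean total count of a mouse's libraries (log2 difference −1.32) and 0.0384 for ribosomal RNA in summed counts (log2 difference 3.29), over 8 against 4 mice. It exceeded 10% in Massa, Medusa, Grilka and Oregon. Most of it was on CT010467.1, *Gm23935* and *Mir6236*, and of these features 4 were tested and all 4 were higher in KO. The 2 shallowest libraries were Massa and Grilka, where the 20 most abundant genes held 72.8% and 70.3% of the counts. *Arid1a* was at 187 ± 57.5 CPM in KO and 167 ± 31.8 in WT (SD, n = 8 each, range 107 to 270 against 125 to 236), a log2 fold change of 0.16 (SE 0.22, edgeR adjusted p = 0.715). A count over the whole gene does not check a deletion of part of it, so KO and WT are used as the labels give them. Osteoblast markers held a median of 1.11% of counts in KO and 7.44% in WT, with 0 of 11 called and 2 of 11 higher in KO. Of these, *Sp7* ran from 0 to 228 CPM in KO and from 5.49 to 147 CPM in WT. Macrophage markers held 0.0231% and 0.202%, with 8 of 9 called lower in KO over tumors and 0 of 9 in counts summed per mouse or with ribosomal RNA as a covariate. Muscle markers reached 8.62% in Oregon and 6.31% in Montana, salivary gland markers 9.40% in Prince, and lung markers 3.74% in the WT tumor labeled lung and 0.422% in Massa. Liver markers reached 0.177% in a KO tumor and erythroid markers 0.212%. In bulk tumors, fewer cells of a type and less RNA per cell cannot be told apart. The part of these differences in the results that follow was not tested, except where a value is given.

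**Figure D1:**
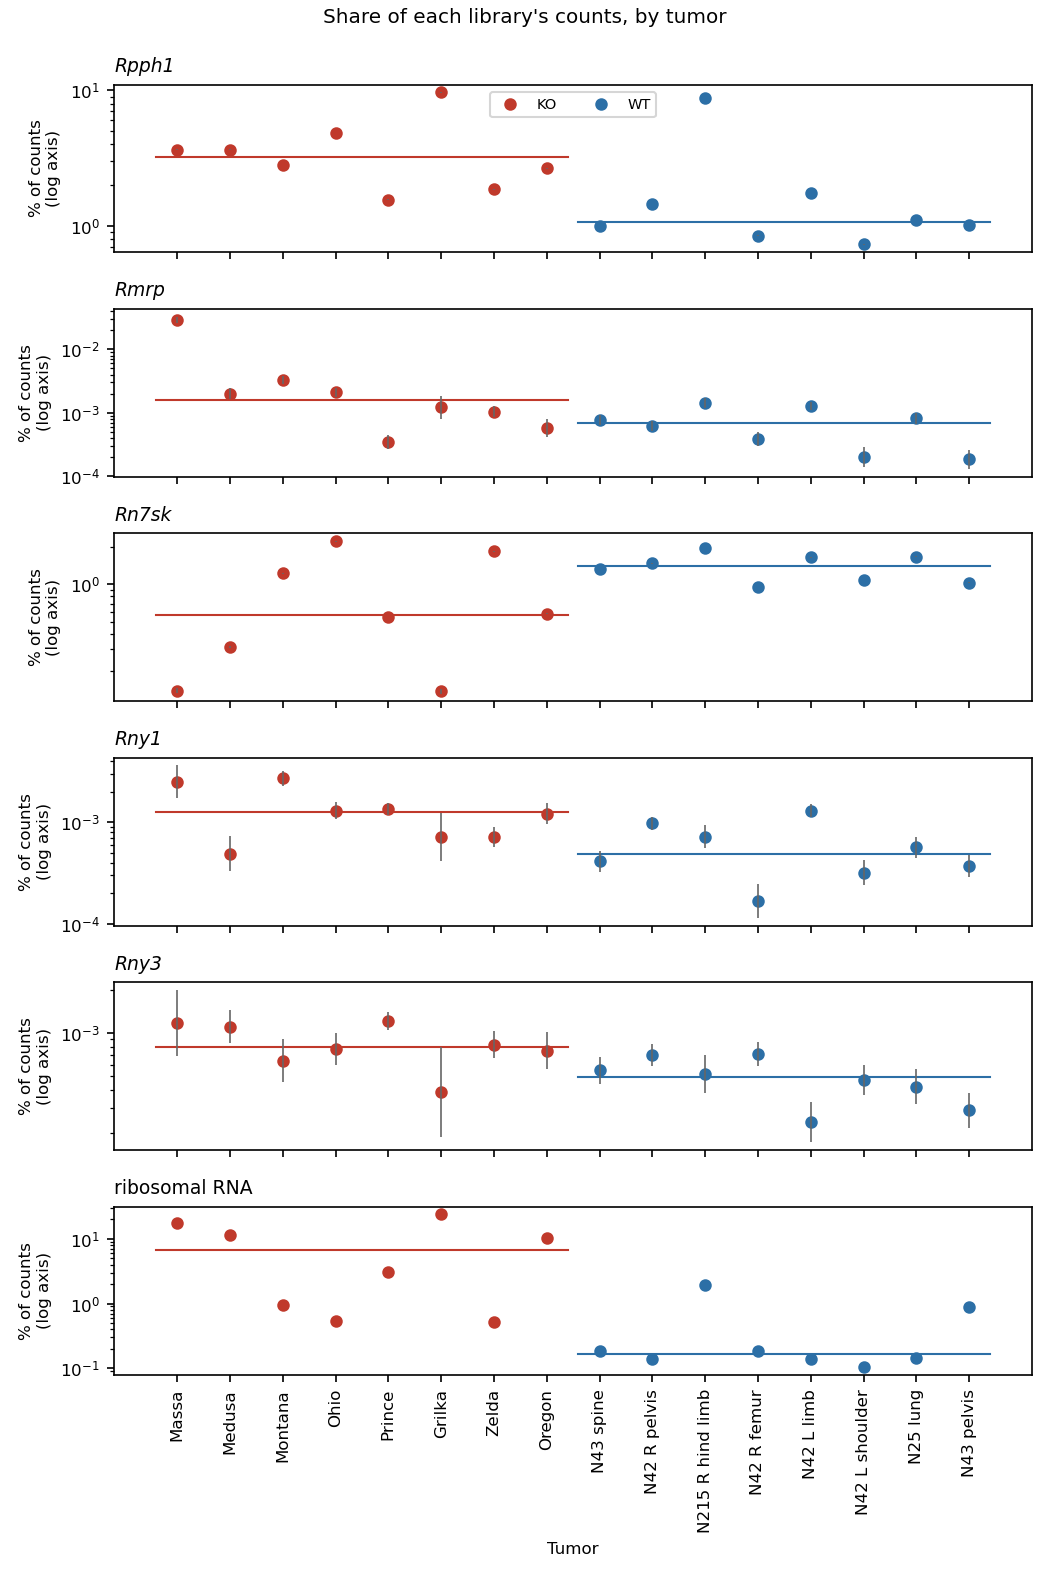
Share of each library's counts (percent, log axis) taken by each of the 5 RNAs and by ribosomal RNA, for each tumor, with KO in red and WT in blue. Horizontal lines are group medians and gray vertical lines are 95% Wilson intervals, which cover counting error only. *Rpph1* was above the WT median in all 8 KO tumors and high in the WT tumor N215 as well, while *Rn7sk* was low in the KO tumors rich in ribosomal RNA.

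Of the 5 RNAs, 3 passed the test of KO against WT over all genes, all higher in KO: *Rmrp*, *Rny1* and *Rny3*. The edgeR quasi-likelihood test called 4.01% of the 15413 genes tested at an adjusted p of 0.05, 1.86% higher and 2.15% lower in KO, and all 5 RNAs were among the genes tested. The groups overlapped for each of the 5, against 0.415% of genes whose groups did not overlap. The median log2 fold change of all genes was 0.10. It moved to −0.33 when libraries were scaled by total counts alone, and 0 of the 5 RNAs were called then, in a fit that called 3.68% of genes. In counts summed per mouse, the edgeR test called 0 of the 5 and 0.0625% of 16007 genes.

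*Rpph1*, the RNase P RNA, was the most abundant of the 5 per length in KO. It took 3.66% of all counts in Massa, 3.66% in Medusa, 2.81% in Montana, 4.87% in Ohio, 1.56% in Prince, 9.67% in Grilka, 1.85% in Zelda and 2.65% in Oregon. Among the WT tumors it took 0.998% in N43 spine, 1.44% in N42 R pelvis, 8.76% in N215 R hind limb, 0.846% in N42 R femur, 1.74% in N42 L limb, 0.730% in N42 L shoulder, 1.10% in N25 lung and 1.01% in N43 pelvis. All 8 KO tumors lay above the WT median of 1.06%, but N215 R hind limb lay above every KO tumor except Grilka. The mean log2 share was 1.23 higher in KO (two-sided exact permutation test over 16 tumors, p = 0.0286). With counts summed per mouse it was 0.83 higher (exact p = 0.230, 8 against 4 mice). The p over tumors rose to 0.05 or more without Ohio, Grilka, N42 R femur or N42 L shoulder, and fell to 0.000777 without N215 R hind limb, where the difference was 1.60. In edgeR, *Rpph1* was at 63750 ± 73080 CPM in KO and 17620 ± 24320 in WT (SD, n = 8 each), where CPM is the count per 1000000 of the TMM-normalized library size. Its log2 fold change of 1.86 (SE 0.93, edgeR adjusted p = 0.243) did not pass the threshold. DESeq2 called it, with a log2 fold change of 1.89 (adjusted p = 0.0360), in a fit that called 12.5% of genes in either direction and 7.76% higher in KO.

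*Rmrp*, the RNase MRP RNA, had few counts in these libraries, with 22 to 328 in KO and 28 to 189 in WT. In CPM it was at 732 in Massa, 20.5 in Medusa, 41.8 in Montana, 15.6 in Ohio, 4.32 in Prince, 29.5 in Grilka, 7.05 in Zelda and 9.23 in Oregon. The WT tumors lay between 1.504 in N43 pelvis and 12.6 in N215 R hind limb. Massa stood far above the other tumors, Medusa, Montana, Ohio and Grilka lay above the WT range, and Prince, Zelda and Oregon lay within it. The edgeR log2 fold change was 4.17 (SE 1.05, adjusted p = 0.0371), and 1.64 without Massa (edgeR adjusted p = 0.0780). The call was also lost without N43 spine, N43 pelvis or any of the 4 tumors of N42. DESeq2 gave 1.57 (adjusted p = 0.0319). The mean log2 share was 1.67 higher in KO (two-sided exact permutation test, p = 0.0424) and 1.23 higher per mouse (exact p = 0.269). The p over tumors rose to 0.05 or more without Massa (difference 1.09), Medusa, Montana, Ohio, either N43 tumor, or the N42 R pelvis, R femur or L shoulder tumor. *Ccdc107*, the gene on the opposite strand that overlaps *Rmrp* over 164 bases, was also called higher in KO, by 4.12 (SE 0.82, edgeR adjusted p = 0.0123), with 1229 CPM in Massa and at most 28.9 CPM in WT. The log2 CPM of the 2 genes had a Pearson r of 0.90 over the 16 tumors, which share the libraries and the overlap.

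*Rn7sk*, the 7SK RNA, went the other way in its share of counts. It took 0.140% in Massa, 0.314% in Medusa, 1.23% in Montana, 2.21% in Ohio, 0.546% in Prince, 0.138% in Grilka, 1.83% in Zelda and 0.578% in Oregon. The WT tumors were closer together, from 0.952% in N42 R femur to 1.96% in N215 R hind limb, with a median of 1.40%. The KO tumors lay on both sides of this range, with Ohio above it and Massa, Medusa, Prince, Grilka and Oregon below it. The mean log2 share was lower in KO (log2 difference −1.28, two-sided exact permutation test, p = 0.0413). Per mouse the difference was −1.42 (exact p = 0.107), and with the TMM-normalized library as denominator it was −0.61 (exact p = 0.134). Leaving out a single tumor took p to 0.05 or more in 11 of 16 cases (highest 0.0782), namely for Massa, Medusa, Prince, Grilka, Oregon, N43 spine, N42 R pelvis, N215 R hind limb, N42 L limb, N42 L shoulder and N25 lung. The edgeR log2 fold change was −0.37 (SE 0.53, adjusted p = 0.723), at 8828 ± 5486 CPM in KO and 11420 ± 3015 in WT (SD, n = 8 each). Pairs of WT tumors differed in log2 CPM of *Rn7sk* by 0.38 on average within a mouse (7 pairs) and by 0.45 between mice (21 pairs), and pairs of KO tumors by 1.20 (28 pairs).

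The Y RNAs were counted thinly. *Rny1* had 13 to 205 counts in KO and 25 to 193 in WT, and *Rny3* had 7 to 182 and 35 to 119. The 7 counts of *Rny3* in Grilka give a share of 0.000386% of counts with a 95% Wilson interval of 0.000187% to 0.000797%, which covers counting error only. *Rny1* was at 62.5 CPM in Massa, 5.07 in Medusa, 34.7 in Montana, 9.64 in Ohio, 17.02 in Prince, 17.5 in Grilka, 4.88 in Zelda and 19.6 in Oregon. In WT it ran from 1.42 in N42 R femur to 9.75 in N42 L limb, so the extremes of the group came from the same mouse, and Medusa, Ohio and Zelda lay within its range. *Rny3* was at 29.0 CPM in Massa, 11.4 in Medusa, 8.16 in Montana, 5.73 in Ohio, 15.1 in Prince, 9.40 in Grilka, 5.63 in Zelda and 12.02 in Oregon. In WT it ran from 1.77 in N42 L limb to 6.02 in N42 R femur, and 2 KO tumors, Ohio and Zelda, lay within this range. The log2 fold change was 2.07 for *Rny1* (SE 0.54, edgeR adjusted p = 0.0408) and 1.52 for *Rny3* (SE 0.38, edgeR adjusted p = 0.0356).

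DESeq2 called both Y RNAs, by 2.13 (adjusted p = 0.00211) and 1.49 (adjusted p = 0.00146). As shares of counts the log2 differences were 1.22 and 0.83 (two-sided exact permutation tests over 16 tumors, p = 0.0193 and p = 0.0110). Per mouse these were 1.03 (exact p = 0.0626) and 0.79 (exact p = 0.0222). The share of *Rny1* was above the WT median in 8 of 8 KO tumors, and that of *Rny3* in 7 of 8. No single tumor took either p over tumors past 0.05. The edgeR calls were less stable. That of *Rny1* was lost in 9 of 16 cases, without Massa, Montana, Grilka, Oregon, either N43 tumor, or the N42 R pelvis, R femur or L shoulder tumor. That of *Rny3* was lost in 9 of 16 cases as well, without Medusa, Prince, Oregon, or any of the N43 and N42 tumors.

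Per length, the order of the 5 RNAs set the abundant pair apart from the rest. In CPM per kilobase, the medians in KO were 115600 for *Rpph1*, 24340 for *Rn7sk*, 154 for *Rny1*, 102 for *Rny3* and 64.1 for *Rmrp*. In WT they were 35600 for *Rn7sk*, 26580 for *Rpph1*, 41.3 for *Rny3*, 34.96 for *Rny1* and 20.0 for *Rmrp*. The ranges of *Rpph1* and *Rn7sk* overlapped in both groups, as did those of *Rny1*, *Rny3* and *Rmrp*. These 2 sets did not overlap in either group. In WT the abundant pair began at 19100 and the rarer set reached 87.0. In KO the sets lay closer, at 9781 against 2604, and *Rmrp* alone ran from 15.4 to 2604 over tumors. Within a library, *Rpph1* was above *Rn7sk* per length in 8 of 8 KO tumors and in 4 of 8 WT tumors. These are levels in libraries from spin columns made for longer RNA, and recovery of RNAs this short was not measured here. For *Rmrp*, 222 of 232 windows were also shared with another record of the same RNA that has no counts here. How such reads were assigned is not known, so its place in the order may not give its RNA level.

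The ratio of 2 RNAs within a library does not depend on its depth or scaling. Of the 10 ratios between members, 4 differed between KO and WT over 16 tumors, and all 4 had *Rn7sk* on one side. In KO there were 26.2 counts of *Rpph1* for each of *Rn7sk* in Massa, 11.6 in Medusa, 2.29 in Montana, 2.20 in Ohio, 2.86 in Prince, 70.2 in Grilka, 1.01 in Zelda and 4.59 in Oregon. In WT there were 0.663 to 1.06 in 7 tumors and 4.46 in N215 R hind limb. Zelda lay at the WT level, and 7 KO tumors lay above every WT tumor but N215 R hind limb. The log2 ratio was 2.50 higher in KO (two-sided exact permutation test, p = 0.00435, adjusted p = 0.0145 over 10 ratios). Per mouse it was 2.25 higher (exact p = 0.0707).

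The log2 ratio of *Rmrp* to *Rn7sk* was 2.94 higher (exact permutation p = 0.00187, adjusted p = 0.0101). The Y RNAs gave the same contrast, with a median of 462 counts of *Rn7sk* per count of *Rny1* in KO and 2855 in WT. This log2 ratio differed by −2.50 (exact permutation p = 0.00202, adjusted p = 0.0101), and that of *Rn7sk* to *Rny3* by −2.10 (exact permutation p = 0.00591, adjusted p = 0.0148). All 4 kept a p under 0.05 whichever tumor was left out. Per mouse the unadjusted exact permutation p was 0.0647 for *Rmrp*, 0.0182 for *Rny1* and 0.0222 for *Rny3*, and the 4 adjusted values ran from 0.111 to 0.177, all above 0.05. The other 6 ratios, which do not involve *Rn7sk*, had unadjusted exact permutation p-values of 0.328 to 0.997.

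**Figure D2:**
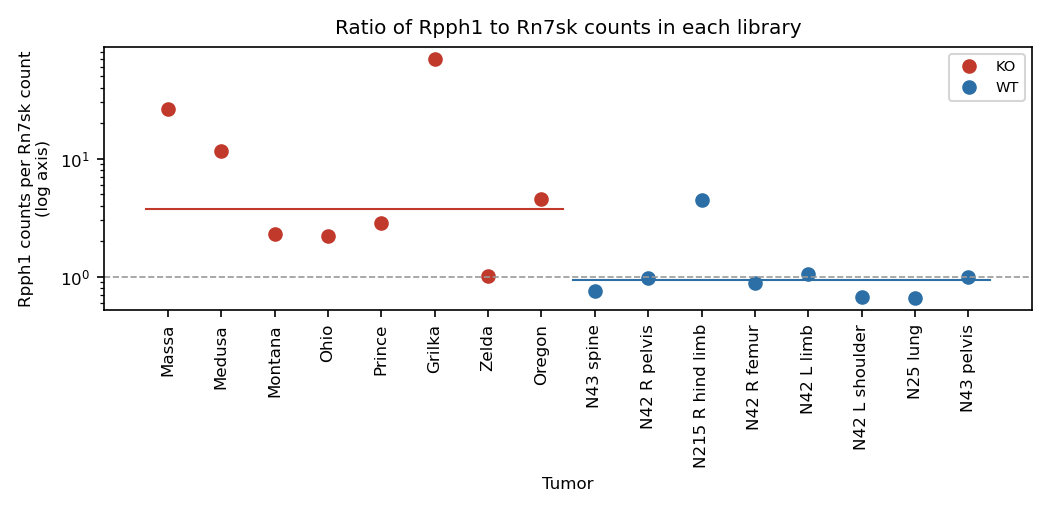
Counts of *Rpph1* per count of *Rn7sk* in each tumor (log axis), with group medians as lines (KO 3.72, WT 0.934) and a dashed line at a ratio of 1. The KO tumors run from 1.01 to 70.2, and 7 of the 8 WT tumors lie at or below 1.06.

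The share of *Rn7sk* moved with ribosomal RNA content. Over 12 mice, with counts summed per mouse, the log2 share of *Rn7sk* and that of ribosomal RNA had a Pearson r of −0.86 (permutation p = 0.00037, adjusted p = 0.00446 over 20 relations) and a Spearman rho of −0.79 (permutation p = 0.00344, adjusted p = 0.0332). Without the 2 mice farthest from the median ribosomal RNA share, r was −0.76. Within the 8 KO mice alone r was −0.95 (exact permutation p = 0.000446, adjusted p = 0.00446) and rho −0.95 (exact permutation p = 0.00114, adjusted p = 0.0228), and r was −0.90 without the 2 farthest mice. With ribosomal RNA taken out of the denominator of the *Rn7sk* share, r was −0.85 over 12 mice and −0.95 within KO, a check chosen after seeing the data. Within the 4 WT mice the number is too small for such a value. Against total counts, *Rn7sk* had r = 0.67 over 12 mice (permutation p = 0.0163, adjusted p = 0.0653) and rho = 0.50 (permutation p = 0.104, adjusted p = 0.231). This r was 0.59 without the 2 farthest mice. Within the 8 KO mice, r against total counts was 0.76 (exact permutation p = 0.0283, adjusted p = 0.0784), and 0.19 without the 2 farthest.

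The other RNAs did not follow *Rn7sk*. Against ribosomal RNA, *Rpph1* had r = 0.63 over 12 mice (permutation p = 0.0314, adjusted p = 0.0784) with rho = 0.62 (permutation p = 0.0365, adjusted p = 0.146), and r was 0.48 without the 2 farthest mice. Against total counts, *Rpph1* had r = −0.70 (permutation p = 0.0102, adjusted p = 0.0508) and rho = −0.77 (permutation p = 0.00498, adjusted p = 0.0332), with r = −0.77 without the 2 farthest. *Rmrp* had r = −0.73 against total counts (permutation p = 0.00608, adjusted p = 0.0405) and rho = −0.74 (permutation p = 0.00763, adjusted p = 0.0382), with r = −0.57 without the 2 farthest. Within the 8 KO mice the relations of *Rpph1* and *Rmrp* with depth had adjusted exact permutation p-values from 0.0784 to 0.208. For the Y RNAs, r ran from −0.49 to 0.39 over both measures and both sets of mice, with adjusted permutation p-values of 0.210 to 0.908. Without the 2 farthest mice, r ran from −0.52 (*Rny1* against ribosomal RNA within KO) to 0.65 (*Rny3* against ribosomal RNA over 12 mice).

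**Figure D3:**
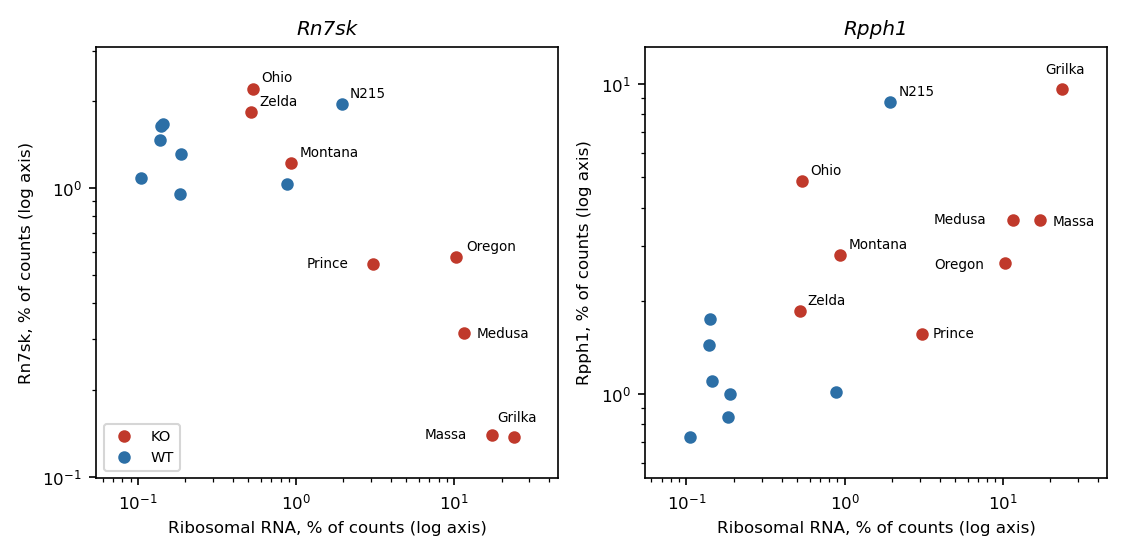
Share of counts of *Rn7sk* (left) and *Rpph1* (right) against the share of ribosomal RNA in each tumor, all in percent on log axes, with KO in red and WT in blue. *Rn7sk* is lowest in Massa and Grilka, at 17.3% and 23.8% ribosomal RNA, and *Rpph1* is highest in Grilka and in the WT tumor N215.

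When ribosomal RNA share was added to the edgeR model, 0 of the 5 RNAs were called, and 7 of 15413 genes (0.0454%) were. *Rpph1* then had a log2 fold change of −0.03 (SE 0.80), *Rmrp* of 0.83 (SE 1.35), *Rn7sk* of 0.18 (SE 0.54), *Rny1* of 1.49 (SE 0.80) and *Rny3* of 0.75 (SE 0.56), with edgeR adjusted p-values of 0.643 to 0.996. With total count as the covariate, 0 were called and 0.642% of genes, and *Rpph1* was at −0.0046 (SE 0.74), *Rmrp* at −0.31 (SE 0.59), *Rn7sk* at 0.10 (SE 0.59), *Rny1* at 1.15 and *Rny3* at 1.10. Without the 4 KO tumors over 10% ribosomal RNA, a comparison chosen after seeing the data, *Rpph1* was at 0.54, *Rn7sk* at 0.13, *Rmrp* at 1.52, *Rny1* at 1.70 and *Rny3* at 1.05, with 0 of the 5 called and 0.504% of genes. The estimates of both Y RNAs were positive in these 3 fits, while those of *Rpph1* and *Rmrp* fell to or below 0 in at least 1. Ribosomal RNA, depth and genotype moved together, and their parts cannot be told apart in these libraries.

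**Figure D4:**
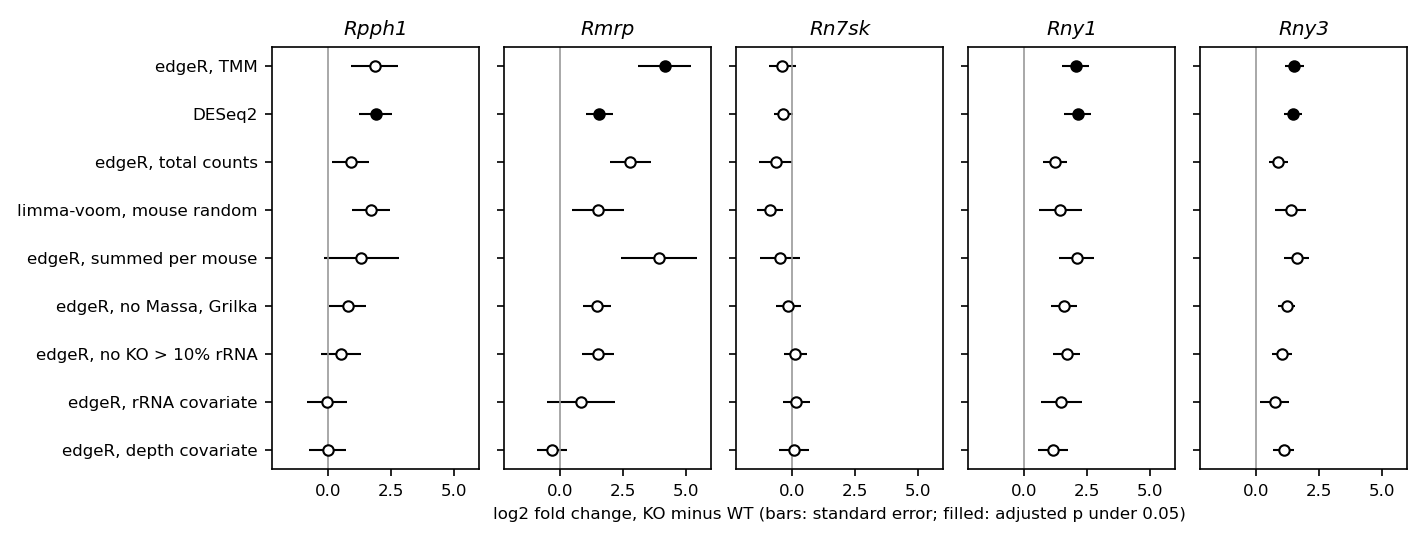
Log2 fold change (KO minus WT) of each RNA in 9 fits, with standard errors as bars and filled points where the adjusted p was under 0.05. *Rmrp*, *Rny1* and *Rny3* are filled in the edgeR fit with TMM scaling, DESeq2 fills *Rpph1* as well, and no point is filled in the other 7 fits.

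Other RNAs that Pol III makes were higher in KO. The table holds 7 of the 15 looked for by name. Of these, 5 were tested and all 5 called higher, against 1.86% of all genes tested. Their log2 fold changes had a median of 5.77, and those of all genes 0.10. They were the 7SL RNAs of the signal recognition particle *Rn7s1* (5.77, SE 1.56, edgeR adjusted p = 0.0460), *Rn7s2* (6.73, SE 1.46, edgeR adjusted p = 0.0178) and *Rn7s6* (6.55, SE 1.43, edgeR adjusted p = 0.0180), the vault RNA *Vaultrc5* (4.05, SE 0.71, edgeR adjusted p = 0.00790) and the RNase P RNA-like gene *Rprl3* (3.53, SE 0.88, edgeR adjusted p = 0.0343). The 7SL genes together took 0.374% to 31.6% of counts in KO (median 2.04%) and 0.0897% to 1.20% in WT (median 0.142%). *Bc1* and *Rprl2*, with 49 and 164 counts in all, were not tested. *Rprl3* shares 46 stretches of 20 bases with *Rpph1*, and its counts may include reads of it. None of the list was called in counts summed per mouse, with ribosomal RNA or total count as a covariate, or without the 4 KO tumors over 10% ribosomal RNA. Without Massa and Grilka, 3 of 6 tested were called higher, with a median of 2.825. Several fits that left out a single tumor, such as Grilka, called 3 of 5. Without the filter on low counts, 5 of 7 were called higher, with a median of 3.95.

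Other short structural RNAs were also higher in many cases. Of 434 genes annotated as snRNA, snoRNA or scaRNA, which guide splicing and RNA modification, 83 were tested, 44 were called higher in KO and 0 lower. They were 31 of 54 snoRNAs, 9 of 18 snRNAs and 4 of 11 scaRNAs. A gene could pass the filter on low counts through the group in which it was high, and the median log2 fold change was 1.96 over the 83 tested genes but 0.45 over all 434 without the filter, where 47 were called higher and 0 lower. DESeq2 called 89 higher and 4 lower, with a median of 0.60. Of 17 tested genes annotated as misc_RNA, which include copies of *Rn7sk*, 6 were called higher, and 4 of these are the 7SL and vault RNA genes already named. No snRNA, snoRNA or scaRNA gene was called by edgeR in counts summed per mouse or with ribosomal RNA as a covariate, and 11 of 182 were called without the 4 KO tumors over 10% ribosomal RNA.

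**Figure D5:**
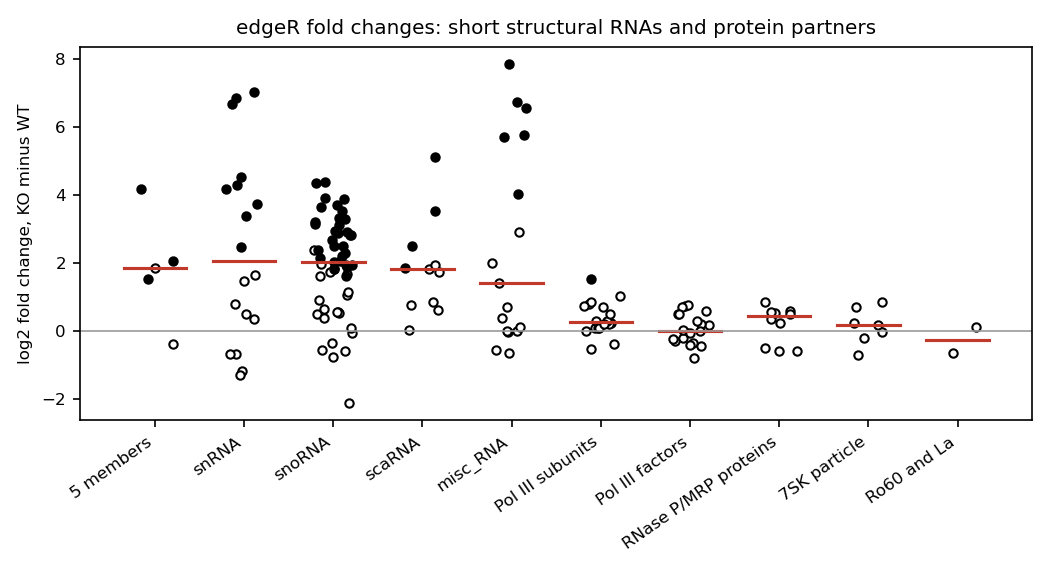
Log2 fold change (KO minus WT, edgeR) of the 5 RNAs, of other short structural RNA genes by annotated type, and of genes for protein partners. Each point is a gene, filled where the adjusted p was under 0.05, and red lines are medians. The short RNA classes have medians from 1.43 to 2.07 over genes that passed the filter on low counts, and from 0.14 to 0.78 over all their genes without it, and the protein lists from −0.26 to 0.44. The misc_RNA class includes the 7SL and vault RNA genes.

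Few messages for the proteins that bind or make these RNAs passed the test. Over all genes, 3546 of the 15413 tested had an unadjusted p under 0.05. Of 10 tested genes for RNase P and RNase MRP proteins, 7 were higher and 3 lower with 0 called in edgeR or DESeq2 and 1 at an unadjusted p under 0.05, and the median was 0.44 (−0.13 with total counts only, where all genes had −0.33). The most abundant were *Rpp14* (0.51, SE 0.38), *Pop1* (−0.48, SE 0.65) and *Pop4* (−0.56, SE 0.31), of which *Pop1* is a subunit of both enzymes. Of 7 genes of the 7SK particle, 4 were higher and 3 lower with 0 called by either tool and 1 at an unadjusted p under 0.05, and the median was 0.19. The kinase *Cdk9* was at −0.20 (SE 0.20) and its cyclins *Ccnt1* and *Ccnt2* at −0.69 (SE 0.29) and −0.02 (SE 0.25). *Ro60*, which binds Y RNAs, was at −0.65 (SE 0.31, edgeR adjusted p = 0.218), and *Ssb*, the gene of the La protein, at 0.13 (SE 0.28, edgeR adjusted p = 0.822). None of these partners passed the test.

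Among 18 Pol III subunit genes, 16 were higher and 2 lower, against 8611 higher and 6801 lower over all genes tested. *Polr3gl* alone was called, at 50.0 ± 35.2 CPM in KO and 17.1 ± 3.28 in WT (SD, n = 8 each). Its log2 fold change was 1.54 (SE 0.42, edgeR adjusted p = 0.0486). *Polr3gl* encodes a subunit that exists in 2 alternative forms. The median of the list was 0.28, and −0.19 with total counts only. DESeq2 called 4 of the 18, all higher. The edgeR call was lost with total counts only, without a filter on low counts, and with ribosomal RNA or total count as a covariate. It was also lost without the 4 KO tumors over 10% ribosomal RNA and in most fits that left out a single tumor. *Polr3a*, which encodes the largest subunit, was at 0.10 (SE 0.27). Among 20 transcription factors and regulators of Pol III, 10 were higher and 10 lower, with 0 called in edgeR. An unadjusted p under 0.05 was reached by 5, near the share over all genes tested (3546 of 15413). DESeq2 called 1 higher and 1 lower, and the median was 0.02. The most abundant were the TFIIIC subunit *Gtf3c1* (0.71, SE 0.32), the TFIIIB subunit *Bdp1* (0.76, SE 0.35) and *Myc* (0.50, SE 0.65), an activator of Pol III. No partner list had a gene called in counts summed per mouse.

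The genes whose log2 CPM was most like each RNA over the 16 tumors were short RNA genes for *Rpph1* and, apart from *Ccdc107*, for *Rmrp*. For *Rpph1* they were its copy *Rprl3* (Pearson r = 0.98) and the snoRNA genes *Snora73a* (0.95) and *Snora73b* (0.94). For *Rmrp* they were the scaRNA gene *Gm25395* (0.92), *Ccdc107* (0.90) and *Scarna6* (0.89). For *Rn7sk* they were the lincRNA gene *6720427I07Rik* (0.91) and *Gm37160* (0.91) and *9430031K09Rik* (0.90), whose annotated type is still to be established. For *Rny1* they were *Ybey* (0.88), *Gm23153* (0.87) and *Lsm4* (0.85), and for *Rny3* they were *Ccdc25* (0.88), *Ulk3* (0.86) and *Gps2* (0.86). Between members, r was 0.73 for *Rpph1* and *Rmrp*, 0.71 for *Rpph1* and *Rny1*, 0.79 for *Rmrp* and *Rny1* and 0.65 for the 2 Y RNAs. *Rn7sk* had an r of −0.24 to −0.60 with the other members. All points share libraries, depth and scaling, so these values are descriptions.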

How the data were processed

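Total RNA was isolated with RNeasy columns, depleted of ribosomal RNA (RiboZero) and sequenced single-end for 50 cycles. Per the labels and the study's methods, the authors aligned reads to mm10 with Novoalign 2.08.01, kept the best alignment of each read, counted reads per gene and ran DESeq2 1.26.0. The values used are the raw counts the authors deposited, with 25054 genes and a smallest gene total of 6. Identifiers were matched to GENCODE M21 (24997 found), which also gave positions, types and sequences. Promoter letters were not analysed here.

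The comparison used edgeR 4.0.16 (R 4.3.3) with TMM, filterByExpr (minimum count 10, minimum total 15; 9641 genes left out), glmQLFit and glmQLFTest, and Benjamini-Hochberg adjustment at 0.05. Log2 CPM had a prior count of 2. DESeq2 1.42.0 and limma 3.58.1 (voom, mouse as random effect, statmod 1.5.0) were alternatives, beside other scalings, no filter, sums per mouse, 1 tumor per mouse, covariates and leaving out tumors. Shares and ratios were tested by exact two-sided permutation (12870 splits of 16 tumors, smallest p 0.000155; 495 of 12 mice, smallest p 0.00202), relations by 100000 permutations over 12 mice or exactly over 8. Python 3.11.15 ran numpy 2.4.6 with scipy 1.17.1, and figures used matplotlib 3.10.9. The fits and the exact permutation test of group differences were tried on simulated data without mouse structure. The test of relations was not. Ribosomal RNA was the sum of 38 features. The labels give no batch or date, so no value could be computed within batches.

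The 5 RNAs and the gene lists were chosen with earlier results of these data known. Genes named are the members, called or most abundant genes of each list (at most 3), other Pol III RNA genes by name, the 3 genes likest each member by Pearson r and the top ribosomal RNA features. Beyond this rule, *Polr3a*, *Arid1a*, *Sp7* and *Gm24447* were picked with their values known.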

Additional observations from a re-analysis of the deposited data

Results flagged for a closer look

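*Rpph1* took 8.76% of the counts of the WT tumor N215 R hind limb, against 0.730% to 1.74% in the other 7 WT tumors. It stood out because its gap to the next WT tumor on the log2 scale was 0.649 of the whole WT range, above Dixon's 95% critical value for 8 samples. Of 12 such groups of values checked, this was the single one past its limit, and chance alone passes in about 1 in 20 groups of independent values. The 8 WT tumors came from 4 mice, so that rate need not hold here. The same library had the highest ribosomal RNA share of the WT group (1.95%), the lowest WT total count (7806160) and the highest WT share of *Rn7sk* (1.96%), and the part of these in the result was not tested.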

How the results depend on the processing

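Depth limits the Y RNAs and *Rmrp* most, at 7 to 328 counts per KO library, and ribosomal RNA, depth and genotype moved together. No paired analysis was possible because KO and WT tumors came from separate mice. The cause of changes between settings was not tested, beyond there being fewer tumors or mice. Calls over all genes numbered 618, and 2517 with DESeq2, 17 with limma-voom, 10 in sums per mouse, 15 with 1 tumor per mouse, 8 without N42, 7 with the ribosomal RNA covariate, 99 with the depth covariate and 90 without the 4 KO tumors over 10% ribosomal RNA (the last chosen after seeing the data). With total counts only, 72 were higher and 495 lower.

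*Rpph1* passed with DESeq2 (1.89) and reversed with the ribosomal RNA (−0.0254) and depth (−0.0046) covariates. *Rn7sk* reversed with these (0.18 and 0.10) and without the 4 tumors (0.13). The other 3 RNAs lost their call, in the order *Rmrp*, *Rny1*, *Rny3*, with total counts only (2.80, 1.24, 0.90), limma-voom (1.52, 1.46, 1.39), sums per mouse (3.92, 2.10, 1.62), 1 tumor per mouse (3.77, 1.90, 1.37), without N42 (3.96, 2.27, 1.68), without Massa and Grilka (1.47, 1.59, 1.22), with the ribosomal RNA covariate (0.83, 1.49, 0.75), with the depth covariate (−0.31, 1.15, 1.10) and without the 4 tumors (1.52, 1.70, 1.05). In all 9 of these settings 0 members were called. Without a filter on low counts *Rny1* lost its call (1.97). Over 30 alternatives, the adjusted p of *Rpph1* ran from 0.0360 to 0.998, *Rmrp* 0.0190 to 0.891, *Rn7sk* 0.563 to 0.953, *Rny1* 0.00211 to 0.660 and *Rny3* 0.00146 to 0.739.

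Leaving out each tumor in turn gave 252 to 1348 calls, 0 to 3 members called, and log2 fold changes of 1.15 to 2.85 (*Rpph1*), 1.64 to 4.43 (*Rmrp*), −0.57 to −0.21 (*Rn7sk*), 1.64 to 2.29 (*Rny1*) and 1.25 to 1.63 (*Rny3*). Log2 share differences ran from 1.00 to 1.60 (*Rpph1*), 1.09 to 2.01 (*Rmrp*), −1.56 to −0.99 (*Rn7sk*), 0.995 to 1.42 (*Rny1*) and 0.695 to 0.982 (*Rny3*).

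Share differences lost p under 0.05 in sums per mouse for *Rpph1* (0.83), *Rmrp* (1.23), *Rn7sk* (−1.42) and *Rny1* (1.03), without N42 for *Rpph1* (0.89), *Rmrp* (1.49) and *Rn7sk* (−1.38), without Massa and Grilka for the same 3 (0.94, 1.09 and −0.60), and for *Rn7sk* with the TMM library (−0.61) or without the top 20 genes (−0.74). The ratios to *Rn7sk* of *Rpph1* (2.25) and *Rmrp* (2.65) lost it per mouse, leaving 2 of 4. No other alternative changed a share or ratio, apart from the single tumors named above.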
